A study of Mus musculus with 12 samples.

Results

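The integrated stress response genes followed here were 9 transcripts (Ddit3, Atf5, Ppp1r15a, Trib3, Chac1, Sesn2, Asns, Phgdh and Cth) read by their symbols from a table of 38739 mouse gene symbols. All 9 were in the table, and 8 passed the filter on low values, with Cth as the exception. The study grew macrophages from the bone marrow (BMDMs) of wild-type (WT) C57BL/6J mice and of mice of that background that lack the cytosolic DNA sensor cGAS in every cell (cGAS-/-), 8-week-old males per the study's methods. The cells were left in medium (UT, untreated) or given lipopolysaccharide (LPS) of E. coli, a component of the bacterial outer membrane, and each of the 4 combinations (WT UT and WT LPS for the wild type, cGAS-/- UT and cGAS-/- LPS for the knockout) had 3 libraries. The labels put the LPS at 100 ng/mL for 1 h, whereas the study's methods give 150 ng/mL for 24 h, so the length of the stimulation is uncertain for every value below. The study describes the 3 libraries of a group as technical replicates, so every SD, SE and p-value below covers the spread between these libraries and not that between mice. Levels are in TPM, a length-corrected unit, and the values point to an average over the transcripts of a gene symbol (2 annotated for Chac1 and 40 for Asns), so a level is not the whole output of a gene and levels are compared between libraries but not between genes. Depth could not be read from them, so no counting interval is given.

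The integrated stress response is a shared answer to amino acid shortage, unfolded protein, viral RNA and haem loss, in which the kinases GCN2, PERK, PKR and HRI phosphorylate the initiation factor eIF2, slow general translation and let the transcription factor ATF4 be made. ATF4, together with other basic leucine zipper (bZIP) factors, then switches on genes for amino acid synthesis and uptake, for tRNA charging and for the end of the response itself. In macrophages, this programme is known to be engaged along with inflammatory signalling, which raises the demand for arginine, serine and cystine. Atf4 was not analysed here.

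The targeted gene followed the genotype labels. Cgas was at 2.67, 2.89 and 2.68 TPM in WT UT, at 1.19, 2.88 and 3.25 TPM in WT LPS, and between 0.0703 and 0.291 TPM in the 6 cGAS-/- libraries. WT LPS replicate 3 stood apart: its total was 709802 TPM against 447189 to 503156 in the other 11 libraries, 31.7% of it was the ferritin pseudogene Fth-ps3 (6.24% to 17.7% elsewhere), and protein-coding genes held 18.5% of it (39.7% to 54.4% elsewhere). Macrophage markers (7 of 10 in the table) summed to 18583 to 35604 TPM, most of it Lyz2 (15701 to 33426 TPM), while T and NK cell markers summed to at most 0.616 TPM. The macrophage markers did not move together with LPS. In cGAS-/-, Cd68 was at 1009 to 1046 TPM untreated and 230 to 249 with LPS, and Mrc1, Mertk and Ctsd were lower too. Lyz2, Itgam and Fcgr1 were higher. The sum is therefore not a test of cell identity, and the labels' extraction text names neutrophils. The B cell markers (7 of 8 in the table) summed to 108 to 134 TPM in WT UT, 30.7 to 45.0 in WT LPS, 20.0 to 28.6 in cGAS-/- UT and 3.08 to 8.89 in cGAS-/- LPS, and the neutrophil markers (9 of 10) to 159 to 232, 59.7 to 374, 67.4 to 142 and 73.2 to 95.2 TPM in the same order, with Elane at 0 in cGAS-/- UT. Stromal markers (6 of 6) summed to 7.31 to 9.26 TPM in WT UT, 5.86 to 17.1 in WT LPS, 2.07 to 3.84 in cGAS-/- UT and 2.80 to 3.91 in cGAS-/- LPS. Dendritic cell markers (5 of 5) summed to 0.308 to 0.398, 0.875 to 2.23, 0.154 to 0.228 and 0.460 to 0.937 TPM, in the same order of groups. Erythroid markers (7 of 7) summed to 4.76 to 8.64, 1.56 to 37.4, 5.00 to 17.9 and 2.72 to 14.7 TPM in that order, so they varied most within WT LPS. Their part in the values below was not tested, and fewer cells of a type cannot be told apart from less RNA per cell.

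Some of the members carried, next to their start, letters that the pathway's factors are known to read, and these stretches are shown because they are the part of the promoter nearest to the pathway. The search covered 250 bases before to 50 after the RefSeq start (GRCm38.p6 promoter table, 8 members with a promoter, Cth not among them) on both strands, and the stretches were placed on GRCm39 by exact match. The letters are TGATGNAA, the core of the C/EBP-ATF response element read by ATF4 and CHOP, and TGACGTCA, the cAMP response element, and capitals mark the match. Only bases before the start are printed. The Chac1 stretch is chr2:119181480-119181587 on the plus strand, the Asns stretch chr6:7693210-7693282 on the minus strand and the Ppp1r15a stretch chr7:45175693-45175754 on the minus strand.
Chac1: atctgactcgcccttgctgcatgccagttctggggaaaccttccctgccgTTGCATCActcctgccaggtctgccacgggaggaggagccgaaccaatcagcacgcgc
Asns: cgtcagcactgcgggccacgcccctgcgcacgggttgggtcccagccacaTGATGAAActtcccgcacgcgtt
Ppp1r15a: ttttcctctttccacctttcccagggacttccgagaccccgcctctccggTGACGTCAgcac
The Chac1 match lay 193 bases before the start and was the reverse complement of TGATGNAA. In Asns the same core lay 23 bases before the start, and Trib3 held it on the reverse strand, TTACATCA, 14 bases after the start. TGATGNAA was thus present in 3 of the 8 members with a promoter, against 3.97% of 32851 promoters, and TGACGTCA in Ppp1r15a against 1.79%. The ER stress response element (CCAAT and CCACG with 9 bases between) was in 0.119% of all promoters and in none of the 8. A match is only a description of the letters in this window.

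Of the transcription factors, Ddit3 (CHOP, the bZIP factor linked to the late, death-promoting arm of the response, chr10:127124268-127132163, plus strand) was measured at 17.4, 17.7 and 20.9 TPM in WT UT, at 51.7, 40.2 and 12.6 TPM in WT LPS, at 8.92, 10.4 and 14.1 TPM in cGAS-/- UT and at 20.1, 15.1 and 22.3 TPM in cGAS-/- LPS. Replicates 1 and 2 of WT LPS were the highest of the 12 libraries, and replicate 3 of that group was below all WT UT libraries. Without LPS, all 3 cGAS-/- libraries were below all 3 WT libraries. The annotated exons of Ddit3 share 64.1% of their bases with Mars1, the methionyl-tRNA synthetase gene on the opposite strand, and the strand setting of the quantification is not stated, so reads of the pair may not have been told apart. Mars1 itself lay between 1.70 and 6.73 TPM in the 12 libraries.

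Atf5 (a bZIP factor whose translation is released in the same way as that of ATF4, chr7:44461680-44466082, minus strand) was at 17.8, 22.1 and 23.5 TPM in WT UT, 29.5, 22.4 and 5.54 in WT LPS, 19.4, 21.1 and 18.9 in cGAS-/- UT and 24.7, 26.1 and 24.99 in cGAS-/- LPS. The cGAS-/- LPS libraries were all above those of cGAS-/- UT, and WT LPS replicate 3 was the lowest of the 12.

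Among the members that end or restrain the response, Ppp1r15a (GADD34, the subunit that directs a phosphatase to eIF2, chr7:45172340-45175692, minus strand) was at 8.12, 7.42 and 6.50 TPM in WT UT, 4.77, 7.84 and 0.528 in WT LPS, 8.92, 10.5 and 8.90 in cGAS-/- UT and 11.6, 8.62 and 12.1 in cGAS-/- LPS. All 3 cGAS-/- libraries were above all 3 WT libraries in either condition. Trib3 (a pseudokinase that binds ATF4 and CHOP and dampens them, chr2:152179337-152191958, minus strand) was at 1.86, 1.15 and 2.42 TPM in WT UT, 2.54, 3.25 and 0.584 in WT LPS, 1.73, 0.962 and 2.88 in cGAS-/- UT and 3.80, 4.92 and 4.86 in cGAS-/- LPS. Every cGAS-/- LPS library exceeded the other 9 for Trib3. The share of all tested genes with this order was not computed, so here and below it is not read as particular to the members.

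Chac1 (an enzyme that degrades glutathione, chr2:119180757-119184866, plus strand) was at 0.676, 1.15 and 1.18 TPM in WT UT, 0.538, 0.747 and 0.314 in WT LPS, 0.624, 0.632 and 1.20 in cGAS-/- UT and 1.43, 1.92 and 1.85 in cGAS-/- LPS. Here too the cGAS-/- LPS libraries were above the other 9. Sesn2 (sestrin 2, a leucine sensor that restrains mTORC1, chr4:132219335-132237815, minus strand) was at 11.9, 12.03 and 12.9 TPM in WT UT, 9.80, 15.5 and 4.71 in WT LPS, 11.4, 11.2 and 12.3 in cGAS-/- UT and 19.9, 19.0 and 20.0 in cGAS-/- LPS. The cGAS-/- LPS group again lay above all other libraries and had the narrowest spread relative to its mean, 19.6 ± 0.545 TPM (SD, n = 3).

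Of the amino acid enzymes, Asns (asparagine synthetase, chr6:7671667-7728461, minus strand) was at 3.70, 2.04 and 2.98 TPM in WT UT, 1.503, 3.07 and 4.82 in WT LPS, 2.92, 3.21 and 4.39 in cGAS-/- UT and 5.66, 6.77 and 6.88 in cGAS-/- LPS. It was the one tested member whose highest WT LPS value was that of replicate 3. Phgdh (the first enzyme of serine synthesis, chr3:98220484-98255047, minus strand) was at 2.09, 2.43 and 1.82 TPM in WT UT, was listed at 0 in replicates 1 and 3 of WT LPS and at 0.333 TPM in replicate 2, and was at 1.97, 1.10 and 2.995 TPM in cGAS-/- UT and 1.14, 2.86 and 1.12 in cGAS-/- LPS. WT LPS was the only group in which Phgdh was near 0. In the annotation, 25 other loci share at least 50% of a transcript with Phgdh, 15 of them in the table and 12 of these at 0 in all 12 libraries, so its reads could have been split. One of these loci, Gm45751, was at 0.282 and 0.655 TPM in WT LPS replicates 1 and 3, where Phgdh was at 0. It was at 0 in replicate 2 and in cGAS-/- LPS, and at 0.0661 to 0.226 TPM in the untreated libraries. Another, Gm7901, was at 0.277 TPM in WT LPS replicate 1 and at 0 elsewhere. Whether reads were assigned differently in these libraries was not tested. Cth (cystathionine gamma-lyase, which makes cysteine, chr3:157599868-157630739, minus strand) was at 0.274 TPM or less in all 12 libraries and was not tested.

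**Figure D1:**
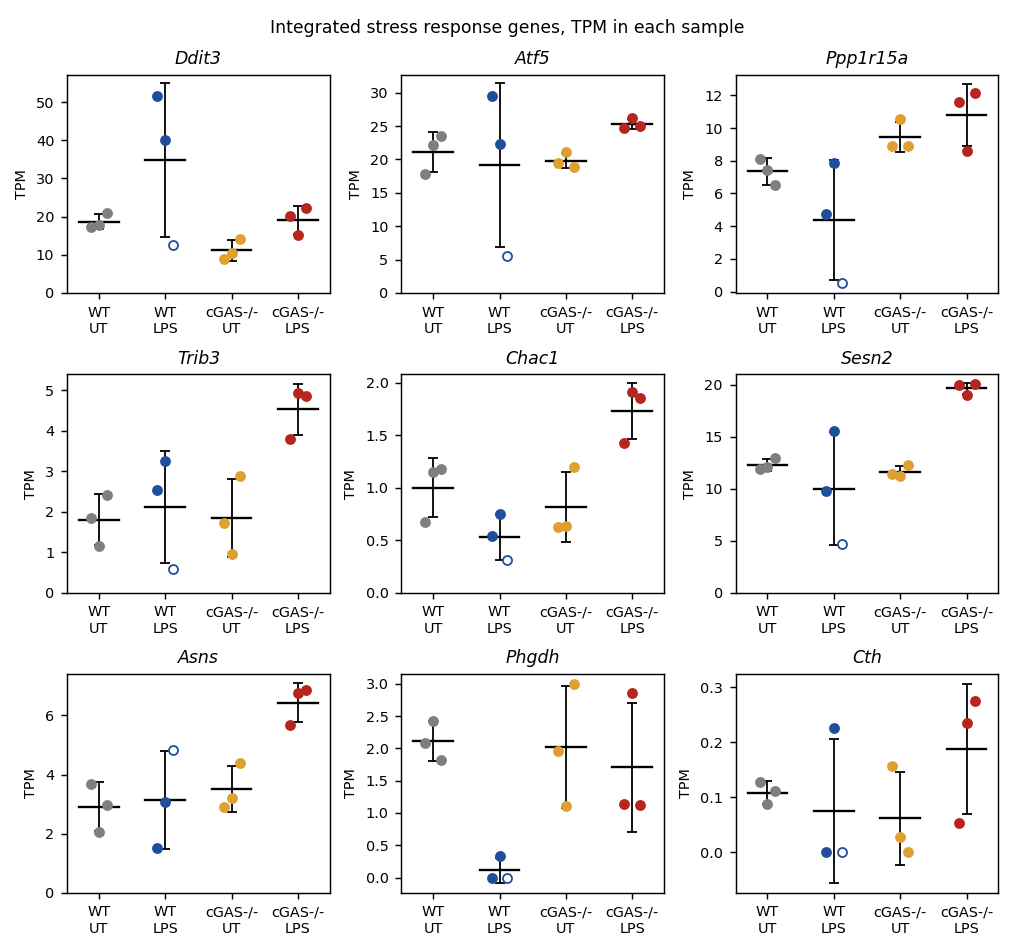
TPM (y axis, 1 panel per gene, each with its own scale starting at or just below 0) of the 9 members in each of the 12 libraries, by group on the x axis, with a bar at the mean and the SD (n = 3); the open circle is WT LPS replicate 3. The cGAS-/- LPS points of Trib3, Chac1, Sesn2 and Asns lie above all other points (the share of all tested genes with this order was not computed), Ddit3 is highest in WT LPS replicates 1 and 2 (51.7 and 40.2 TPM), and Phgdh is near 0 in WT LPS.

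Without LPS, no member passed the test between genotypes. Each difference was taken on log2(TPM + 1), which understates the change of low genes, with limma over all 12 libraries, and calls were made where p, adjusted by Benjamini and Hochberg over the 11887 genes tested, was under 0.05. At this rule 1.83% of all tested genes were called and 0 of 8 members, and 0 members had an unadjusted p under 0.05, against 8.08% of all tested genes. Ddit3 had the largest difference, a log2 fold change of -0.71 (SE 0.43, adjusted p = 0.949), and Ppp1r15a the largest in the other direction, 0.32 (SE 0.50, adjusted p = 1). All 3 libraries of one genotype were above all 3 of the other for Ppp1r15a (higher in cGAS-/-; 12.1% of tested genes) and for Ddit3 (lower in cGAS-/-; 18.4%). The median over the 8 members was -0.08, against -0.04 over all tested genes.

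With LPS, most of the members were higher in cGAS-/- than in WT macrophages, although only Chac1 passed the test. Chac1 stood at 1.73 ± 0.264 TPM in cGAS-/- LPS against 0.533 ± 0.217 in WT LPS (mean ± SD, n = 3), a log2 fold change of 0.84 (SE 0.19, adjusted p = 0.0497). This was 1 of 8 members called, against 2.36% of all tested genes, or 1.36% in this direction. For 6 of the 8 members, Trib3, Chac1, Asns, Phgdh, Sesn2 and Ppp1r15a, all 3 cGAS-/- libraries were above all 3 WT libraries, as was the case for 12.6% of tested genes, and these 6 had an unadjusted p under 0.05, against 18.8% of tested genes. Phgdh missed the call by little, at 1.24 (SE 0.29, adjusted p = 0.0516). The log2 fold changes of the remaining members were 1.45 for Ppp1r15a (SE 0.50), 1.04 for Sesn2 (SE 0.32), 0.93 for Trib3 (SE 0.37), 0.93 for Asns (SE 0.30), 0.65 for Atf5 (SE 0.46) and -0.64 for Ddit3 (SE 0.43), with adjusted p between 0.136 and 0.436. The member median was 0.93, and 7 of 8 were positive, beside a median of 0.20 and 65.0% positive over all tested genes.

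These genotype differences depended on WT LPS replicate 3, whose log2(TPM + 1) values differed from the mean of the other WT LPS libraries by -2.22 for Ppp1r15a, -2.03 for Atf5, -1.77 for Ddit3, -1.29 for Trib3 and -1.23 for Sesn2, with a median of -0.54 over all tested genes. Chac1 (-0.32) and Phgdh (-0.21) lay nearer to 0 than that median, and Asns was higher in this library (0.87). Its 9 members summed to 29.1 TPM, against 100 and 93.5 in replicates 1 and 2. Without this library, Chac1 (0.73, SE 0.19, adjusted p = 0.0435), Sesn2 (0.63, SE 0.16, adjusted p = 0.0411) and Asns (1.22, SE 0.25, adjusted p = 0.0160) were called higher in cGAS-/- LPS, and Ddit3 was called lower (-1.23, SE 0.21, adjusted p = 0.00704), while 8.28% of all tested genes were called. When replicate 2 of WT LPS was left out instead, 5 members were called higher (Chac1, Phgdh, Ppp1r15a, Sesn2 and Trib3), and 27.9% of all tested genes were called. Chac1 was called in these runs, and in none of the other 10 that left out 1 library.

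The calls also changed with the scaling. With TMM factors, which centre the bulk of genes between libraries, the median of all tested genes moved from 0.20 to 0.03 in this comparison, and Chac1 (0.74, adjusted p = 0.0349), Phgdh (1.31, adjusted p = 0.0295) and Sesn2 (0.69, adjusted p = 0.0270) were called higher, against 4.17% of all tested genes. Relative to the median of all tested genes, the differences of the deposited values were 1.25 for Ppp1r15a, 1.04 for Phgdh, 0.84 for Sesn2, 0.73 for Trib3 and Asns, 0.64 for Chac1, 0.45 for Atf5 and -0.84 for Ddit3. Ddit3 thus stood apart from the other 7 in direction, and Atf5 was at -0.02 without WT LPS replicate 3.

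**Figure D2:**
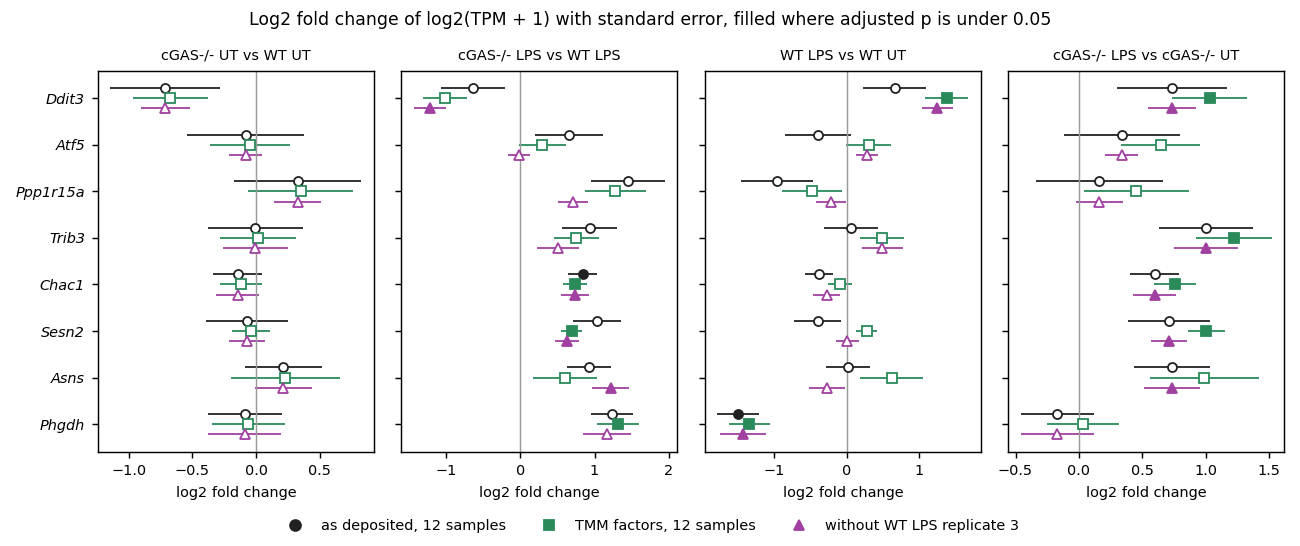
Log2 fold change (x axis, log2(TPM + 1) scale, 1 panel per comparison) with its SE for the 8 tested members, as deposited (circles), with TMM factors (squares) and without WT LPS replicate 3 (triangles); filled symbols have an adjusted p under 0.05. In the comparison of cGAS-/- LPS with WT LPS, Ddit3 lies to the left of 0 (-0.64, and -1.23 without that library) and the others, apart from Atf5 without that library (-0.02), to the right.

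In WT macrophages, the Phgdh value was lower after LPS, with the limit on its read assignment given above, and no other member passed the test. Phgdh went from 2.11 ± 0.305 TPM in WT UT to 0.111 ± 0.192 in WT LPS (mean ± SD, n = 3), a log2 fold change of -1.50 (SE 0.29, adjusted p = 0.00365). This was 1 of 8 members, whereas 27.6% of all tested genes were called and 23.3% were called lower, so the share of members called was below that of all genes. Phgdh was called in all 12 runs that left out 1 library, and in every other fit tried except the one with a weight per library (adjusted p = 0.136). The other 7 members had log2 fold changes from -0.96 (Ppp1r15a) to 0.66 (Ddit3). Their median with Phgdh was -0.39, close to the -0.46 of all tested genes, which moved to -0.05 with TMM factors. Without WT LPS replicate 3, Ddit3 was called higher after LPS (1.25, SE 0.21, adjusted p = 0.00167, 34.7% of all tested genes called), and likewise with TMM factors (1.38, SE 0.30, adjusted p = 0.00820, 19.6% called). Without WT LPS replicate 2, Ppp1r15a (-1.49) and Sesn2 (-0.76) were called lower along with Phgdh, and 48.7% of all tested genes were called, so the 3 of 8 members were below the background.

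In cGAS-/- macrophages, LPS went with higher values of 7 of the 8 members, although none was called, against 13.8% of all tested genes, or 4.76% called higher. The largest log2 fold changes were those of Trib3 (1.00, SE 0.37, adjusted p = 0.108), Ddit3 (0.73, SE 0.43, adjusted p = 0.340), Asns (0.73, SE 0.30, adjusted p = 0.149), Sesn2 (0.71, SE 0.32, adjusted p = 0.202) and Chac1 (0.60, SE 0.19, adjusted p = 0.0658), and 3 members had an unadjusted p under 0.05, against 24.9% of tested genes. In these 5 genes and in Atf5, all 3 LPS libraries were above all 3 untreated ones, as for 15.5% of tested genes. Phgdh was at -0.17 (SE 0.29). The member median was 0.65, beside -0.20 over all tested genes, of which 32.4% were positive.

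No WT library enters this contrast, but the fit shares 1 estimate of the spread over the 4 groups. Fitted without WT LPS replicate 3, the log2 fold changes stayed as they were and Asns, Chac1, Ddit3, Sesn2 and Trib3 were called higher (adjusted p from 0.00417 for Sesn2 to 0.0317 for Asns), with 30.8% of all tested genes called. Chac1 and Sesn2 were called without WT LPS replicate 2 (20.4% of all tested genes called). With only the 6 cGAS-/- libraries, the 5 genes and Atf5 were called, beside 44.6% of all tested genes. With TMM factors, Chac1, Ddit3, Sesn2 and Trib3 were called (0.76, 1.03, 1.01 and 1.22, against 13.7% of all tested genes).

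The LPS effect was then compared directly between genotypes, as the cGAS-/- effect minus the WT effect. None of the 8 members passed this test, in which 0.900% of all tested genes were called, and 3 had an unadjusted p under 0.05, against 11.1% of tested genes. All 8 differences were positive, with Phgdh at 1.33 (SE 0.41, adjusted p = 0.225), Ppp1r15a at 1.12 (SE 0.71, adjusted p = 0.602), Sesn2 at 1.11 (SE 0.46, adjusted p = 0.405), Chac1 at 0.98 (SE 0.27, adjusted p = 0.168) and Ddit3 at 0.08 (SE 0.61, adjusted p = 0.964), but 68.2% of all tested genes were positive too. The sign of Ddit3 turned with TMM factors (-0.35) and without WT LPS replicate 3 (-0.52). Chac1 (1.08) and Sesn2 (1.47) were called without WT LPS replicate 2, as were 12.6% of all tested genes. A difference in the LPS effect of the members between genotypes was therefore not established. The 95% interval for Chac1, the member with the lowest adjusted p, ran from 0.38 to 1.58. That interval is for a single gene and is not adjusted for the number of genes tested, so it does not stand against the adjusted result.

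Around the members, 7 lists of genes of the pathway were read in the same fits. They hold the eIF2 kinases and their partners (14 of 17 genes tested), the bZIP factors (8 of 10), amino acid synthesis and one-carbon enzymes (7 of 15), aminoacyl-tRNA synthetases (16 of 21), amino acid transporters (7 of 14), other targets of ATF4 and CHOP (14 of 25) and, for comparison, targets of ATF6 and XBP1, the other arms of the unfolded protein response (16 of 21). Without LPS, none of the listed genes was called between genotypes. That count depended on the WT LPS libraries, which share the estimate of the spread: without WT LPS replicate 3 the calls were 2 bZIP factors, 2 amino acid enzymes and 4 other targets lower in cGAS-/- and 1 other target higher (5.33% of all tested genes called), and 1 other target was called without replicate 2. Library weights gave 16 listed genes (11.5% of all tested genes called), the 6 untreated libraries alone 12 (10.4%), and TMM factors 1 (1.83%). The run without replicate 2 called 2.87% of all tested genes. Named genes are the up to 3 with the largest called change in each direction of each list.

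With LPS, 7 listed genes were called between genotypes, all higher in cGAS-/-. Of all tested genes, 2.36% were called and 1.36% were called higher. The transporters gave 3 of their 7 tested genes. Slc7a2 (CAT2, the arginine transporter that is induced in activated macrophages) was at 3.87, 7.55 and 1.88 TPM in WT LPS and at 35.8, 30.4 and 31.4 TPM in cGAS-/- LPS, with no overlap, a log2 fold change of 2.76 (SE 0.32, adjusted p = 0.00127). Slc7a11 (xCT, the cystine importer) was at 2.64, 1.49 and 1.18 TPM against 6.19, 5.25 and 5.12 TPM, a log2 fold change of 1.27 (SE 0.23, adjusted p = 0.0172). Slc7a1 (CAT1, the basal arginine transporter) was at 0.575 to 0.694 TPM against 1.54 to 1.69 TPM (0.66, SE 0.13, adjusted p = 0.0286). The WT LPS and cGAS-/- LPS libraries of Slc7a11 and Slc7a1 did not overlap either.

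The other lists gave 1 gene each or none. Mthfd2, a mitochondrial folate enzyme, was at 7.97, 9.83 and 4.88 TPM in WT LPS and 16.4, 16.4 and 17.6 TPM in cGAS-/- LPS (1.10, SE 0.24, adjusted p = 0.0400). Iars, the isoleucyl-tRNA synthetase, was at 0.915, 2.70 and 1.17 against 4.41, 4.66 and 5.41 TPM (1.23, SE 0.24, adjusted p = 0.0249). Herpud1, a component of ER-associated degradation, was at 2.10, 3.43 and 2.58 against 7.19, 5.48 and 7.81 TPM (1.08, SE 0.22, adjusted p = 0.0313). Hyou1, an ER chaperone of the comparison list, was at 3.004, 5.43 and 1.10 against 9.99, 9.10 and 9.59 TPM (1.48, SE 0.33, adjusted p = 0.0421). None of the kinases or bZIP factors was called. Slc7a2 was called in all 12 runs that left out 1 library and Slc7a11 in 9, losing the call without any 1 of the cGAS-/- LPS libraries, whereas Iars was called in 4, Mthfd2 and Slc7a1 in 3, and Herpud1 and Hyou1 in 2 (those without WT LPS replicate 2 or 3). With TMM factors, Slc7a1 (adjusted p = 0.147) and Herpud1 (adjusted p = 0.108) were not called, while 5 of 16 tRNA synthetases were called higher (2.25% of all tested genes). With WT LPS replicate 3 left out, 3 tRNA synthetases and 3 targets of ATF6 and XBP1 were called higher (3.84% of all tested genes) and 1 gene of the kinase list lower (4.44%). The run without replicate 2, in which 27.9% of all tested genes were called, called 12 of 16 genes in each of these 2 lists and 7 of 14 in the kinase list.

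The medians of the lists lay between 0.32 (bZIP factors) and 1.01 (tRNA synthetases), so the 0.93 of the members was within the range of the lists, with the comparison list at 0.85. Without WT LPS replicate 3 the members' median was 0.67, and those of the lists lay between 0.06 (other targets of ATF4 and CHOP) and 0.68 (transporters).

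**Figure D3:**
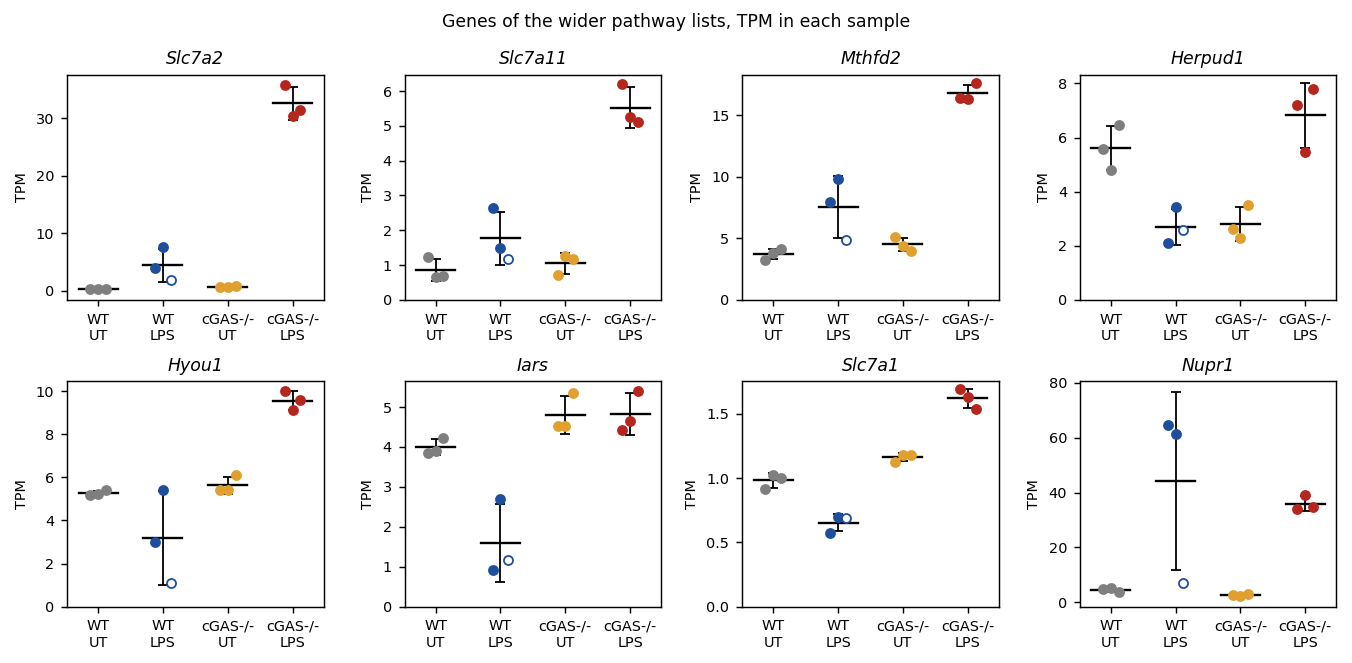
TPM (y axis, 1 scale per panel) of 8 genes of the wider lists in each of the 12 libraries, by group on the x axis, with a bar at the mean and the SD (n = 3); the open circle is WT LPS replicate 3. Slc7a2, Slc7a11, Mthfd2, Hyou1 and Slc7a1 are highest in the 3 cGAS-/- LPS libraries (Slc7a2 30.4 to 35.8 TPM), whereas Nupr1 is highest in WT LPS replicates 1 and 2 (64.7 and 61.5 TPM).

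After LPS, 4 bZIP factors were called in both genotypes and Atf3 in WT. Cebpb (C/EBP beta, a partner of ATF4) was at 159, 141 and 120 TPM in WT UT and 678, 669 and 234 in WT LPS (1.76, SE 0.36, adjusted p = 0.00530), and at 199, 165 and 174 in cGAS-/- UT and 628, 585 and 640 in cGAS-/- LPS (1.78, SE 0.36, adjusted p = 0.00662). Batf rose by a log2 fold change of 1.83 in WT (adjusted p = 0.0128) and of 3.44 in cGAS-/- (adjusted p = 0.000362), and Jdp2 by 1.05 and 1.64. Cebpa (C/EBP alpha, a myeloid differentiation factor) fell from 74.7 to 83.3 TPM in WT UT to 0.763 to 10.3 TPM in WT LPS (-3.75, SE 0.56, adjusted p = 0.000789) and from 76.4 to 98.8 to 8.52 to 10.97 TPM in cGAS-/- (-3.06, SE 0.56, adjusted p = 0.00352). Atf3, an early stress factor, was called lower in WT (-1.60, SE 0.37, adjusted p = 0.00943) and was at -1.16 in cGAS-/- (adjusted p = 0.0607), a difference that was not called. Of 8 tested bZIP factors, 3 rose and 2 fell in WT, and 3 rose and 1 fell in cGAS-/-, where 27.6% and 13.8% of all tested genes were called. The other tested factors (Nfe2l2, Atf2 and Cebpg) did not pass in either genotype. These 4 calls per genotype on Cebpb, Batf, Jdp2 and Cebpa held in all 12 runs that left out 1 library.

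Among the targets, Slc7a2 rose in both genotypes after LPS, by 1.94 (SE 0.32, adjusted p = 0.00137) in WT from 0.226 to 0.381 TPM untreated, and by 4.31 (SE 0.32, adjusted p = 7.08e-06) in cGAS-/- from 0.594 to 0.785 TPM. Mthfd2 rose by 0.81 (SE 0.24, adjusted p = 0.0285) in WT and by 1.70 (SE 0.24, adjusted p = 0.000657) in cGAS-/-. Nupr1, a stress-induced chromatin protein, rose by 2.53 (SE 0.64, adjusted p = 0.0148) in WT and 3.39 (SE 0.64, adjusted p = 0.00428) in cGAS-/-. Slc7a11 (1.68, adjusted p = 0.000489) and Herpud1 (1.04, adjusted p = 0.00901) were called higher after LPS in cGAS-/-. The WT effect of Mthfd2 was called in 8 of the 12 runs that left out 1 library and that of Nupr1 in 11, and Herpud1 in cGAS-/- was called in 10.

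Lower after LPS in both genotypes were the kinase genes Eif2ak3 (PERK; -1.03 in WT and -0.71 in cGAS-/-, adjusted p = 0.00334 and 0.0344) and Eif2ak4 (GCN2; -0.69 and -0.75, adjusted p = 0.0193 and 0.0198), both of a list with 3 of 14 genes called lower in WT, the third being Eif2a (-1.01, adjusted p = 0.0301). Lower in both genotypes were also the glutamine transporter Slc1a5 (-1.39 and -0.95) and the death-promoting BH3 protein gene Bcl2l11 (-1.63 and -1.75). In WT, Glul, which makes glutamine, fell from 89.3 to 94.0 TPM to 3.95 to 23.2 TPM (-2.87, SE 0.46, adjusted p = 0.00117), and Gadd45a (-2.31), Txnip (-2.01) and Shmt2 (-1.61) were called lower. Of 16 tRNA synthetases, 3 were called lower in WT, Farsb (-1.34), Iars (-1.01) and Eprs (-0.98), and none in cGAS-/-. Of 16 targets of ATF6 and XBP1, 4 were called lower in WT, among them Atf6 (-1.43), Dnajb9 (-1.14) and Sel1l (-1.04), and none in cGAS-/-. Of all tested genes, 23.3% were called lower in WT and 9.06% in cGAS-/-, so the WT shares of these 2 lists and of the kinase list lay near the background. Among the other targets of ATF4 and CHOP, 7 of 14 were called lower in WT, and 4 with TMM factors, where 11.6% of all tested genes were called lower. In cGAS-/-, the calls of Eif2ak4 and Slc1a5 held in 6 of the 12 runs that left out 1 library and that of Eif2ak3 in 3. In WT, Eprs was called in 2 of these 12 runs, Dnajb9 in 4, Atf6 and Eif2a in 9 and Eif2ak4 in 10, and the other genes named here in all 12. In WT with TMM factors, Eif2ak4 (adjusted p = 0.0642), Eif2a (0.0969), Iars (0.107), Eprs (0.0991), Dnajb9 (0.118) and Sel1l (0.0867) were not called, and 3 genes of the kinase list were called higher in place of none (8.06% of all tested genes). In cGAS-/- with TMM factors, Eif2ak3 was not called (adjusted p = 0.0747).

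The LPS effect itself differed between genotypes for 2 listed genes, Slc7a2 (2.37, SE 0.45, adjusted p = 0.0395) and Herpud1 (1.89, SE 0.31, adjusted p = 0.0202). Herpud1 was at 5.58, 4.81 and 6.46 TPM in WT UT and 2.62, 2.28 and 3.50 TPM in cGAS-/- UT, so the libraries of the genotypes stood in opposite order without and with LPS. The untreated difference was not called (-0.80, limma adjusted p = 0.138). All 3 cGAS-/- libraries were below all 3 WT libraries untreated for 18.4% of tested genes. With TMM factors the Herpud1 difference of LPS effects was not called.

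**Figure D4:**
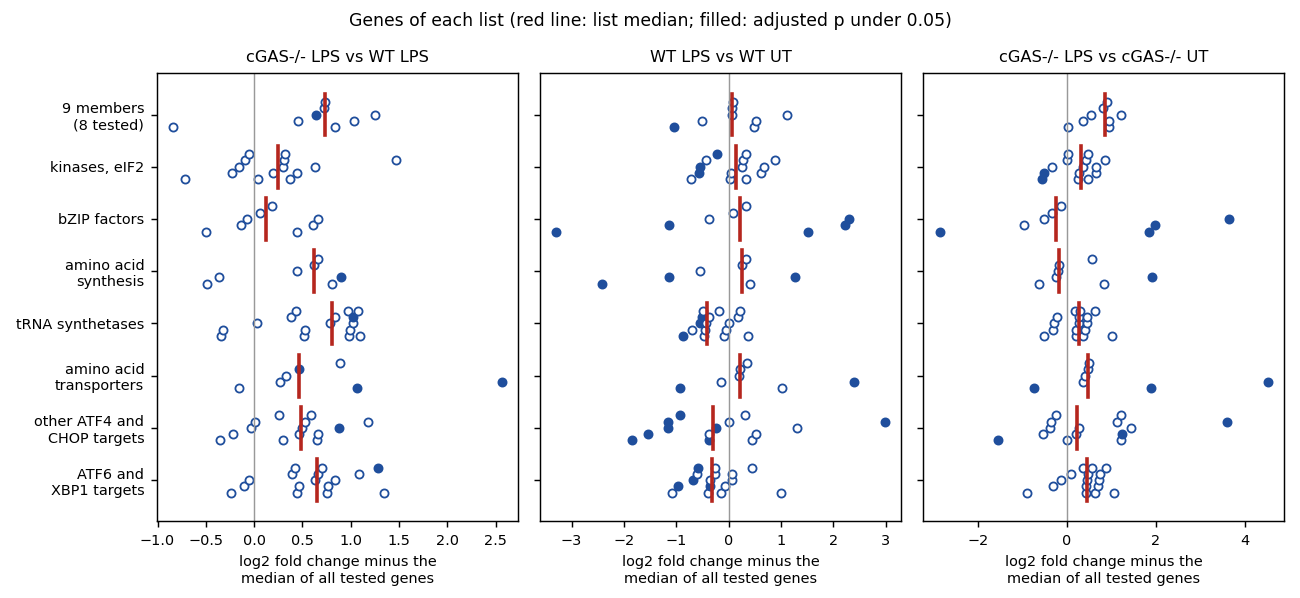
Log2 fold change minus the median of all tested genes (x axis, 1 panel per comparison) of each tested gene of the members and the 7 lists (y axis); filled points have an adjusted p under 0.05, and the red line is the median of the list. In the comparison of cGAS-/- LPS with WT LPS, the point furthest to the right is Slc7a2 (2.76 before the median of 0.20 is taken off), and the one called member is Chac1.

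Likeness of pattern was measured by Pearson's r of log2(TPM + 1) over the 12 libraries, as a description only, since the points share libraries and groups. Between members, r ran from -0.51 (Ddit3 and Phgdh) to 0.87 (Sesn2 and Ppp1r15a), and Sesn2 was also close to Trib3 (0.85) and Chac1 (0.84). Without WT LPS replicate 3, the values of these 4 pairs were -0.77, 0.63, 0.80 and 0.82. The genes most like each member were ranked by the same measure. Ddit3 was closest to Plbd1 (r = 0.94), Il10 (0.93) and Oas1h (0.92). Trib3 was closest to Cry1 (0.91), Wfdc21 (0.91) and Pvr (0.90), Chac1 to Adgrg6 (0.90), Spn (0.89) and Prkar2b (0.88), and Asns to Gm4797 (0.90), Cop1 (0.89) and Lyz2 (0.88). Sesn2 was closest to Lyz1 (0.99), Ncf1 (0.99) and Lrrc59 (0.98), and Phgdh to Tsku (0.95), Rpsa-ps5 (0.95) and Poc1b (0.94). Ppp1r15a was closest to Sars (0.99), Sar1a (0.99) and Hax1 (0.98) and Atf5 to Snf8 (0.99), Ndufa13 (0.98) and Psmc4 (0.98), and without WT LPS replicate 3 these 6 values fell to between 0.85 and 0.93.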

How the data were processed

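RNA of 12 BMDM libraries was sequenced after a strand-specific kit. The submitters' processing notes and the study's methods name fastp, STAR, Kallisto and GRCm39; the authors deposited 1 table of normalized values in TPM per gene symbol, apparently averaged over the transcripts of a symbol; unit and averaging were inferred from the values. The table was not rescaled. Genes at 1 TPM or more in at least 3 of 12 libraries, after rescaling each to 1000000 for the filter alone, were tested (11887 of 38739). The test was limma (version 3.58.1, R 4.3.3) with a trend on log2(TPM + 1), over the 4 groups and with 5 contrasts; the call was an adjusted p under 0.05. The methods' further limit, a log2 fold change beyond 2, was an alternative. Scripts were tested on simulated data. Also tried were a pseudocount of 0.1 or 5, a filter at 5 TPM or none, TMM factors, quantile normalization, a common total, protein-coding genes only, the 6 libraries compared, a replicate block, no trend, library weights and leaving out each library; TMM factors without WT LPS replicate 3 was added after the data were seen. Named genes are the members, Cgas, up to 3 called genes per list and direction, the 3 most similar genes, genes sharing sequence or exons with a member (blastn 2.17.0, gene models on GRCm39) and the top gene of a library that stood apart. Members and lists were chosen with earlier results of these data known. The labels' extraction text names neutrophils and their dose and time differ from the methods'; groups follow the sample labels. The table ends within chromosome 13, so Atf4 and others were not analysed here.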

Additional observations from a re-analysis of the deposited data

Results flagged for a closer look

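The effect of LPS differed between genotypes, by a direct test of the difference, for 2 genes of the pathway lists. For Slc7a2 the cGAS-/- effect (4.31) exceeded the WT effect (1.94) by 2.37 on the log2(TPM + 1) scale (SE 0.45, limma adjusted p = 0.0395), with the 3 cGAS-/- LPS libraries at 30.4 to 35.8 TPM and the 3 WT LPS libraries at 1.88 to 7.55. The difference was 1.98 without WT LPS replicate 3 (adjusted p = 0.00361) and 2.12 with TMM factors (adjusted p = 0.00316), and it was called in 2 of the 12 runs that left out 1 library, those without WT LPS replicate 2 or 3. For Herpud1 the difference was 1.89 (SE 0.31, adjusted p = 0.0202), it was 1.87 without WT LPS replicate 3 (adjusted p = 0.00569) and 1.54 with TMM factors (adjusted p = 0.0715), and it was called in 5 of the 12 runs. Of all tested genes, 0.900% were called in this test.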

How the results depend on the processing

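Depth cannot be read from the TPM values, and the calls turned on the WT LPS libraries and on the scaling, so the number of members called is not a firm quantity. Between genotypes with LPS, 1 member, Chac1, was called as reported, and it was called in 6 of the 24 alternatives that tested it. With a pseudocount of 0.1 and with a common total the 1 member called was Phgdh instead (1.37% and 1.35% of all tested genes called). The count was 0 with the filter at 5 TPM, which removed Chac1 itself from the test, and 0 with no filter, with the 6 libraries alone, without the trend, with library weights and with the limit on the fold change. It was 2 with quantile normalization and with protein-coding genes only (4.64% and 3.48% of all tested genes called) and 3 with TMM factors (4.17%). With TMM factors and WT LPS replicate 3 left out it was 6 (13.7%), and when 1 library was left out 0 to 5 (0.648% to 27.9%). For LPS in WT, the count of 1 became 2 with TMM factors (19.6% of all tested genes called) and 3 with protein-coding genes only (55.2%). It was 0 with library weights (19.4%) and with the limit on the fold change, and 4 with TMM factors and WT LPS replicate 3 left out (31.3%). When 1 library was left out it was 1 to 3 (16.5% to 48.7%). For LPS in cGAS-/-, the count of 0 became 1 with a pseudocount of 5 (15.4% of all tested genes called), 4 with TMM factors (13.7%) and 3 with quantile normalization (15.1%). It was 6 with the 6 libraries alone and with library weights (44.6% and 48.3%), and 7 with TMM factors and WT LPS replicate 3 left out (29.8%). When 1 library was left out it was 0 to 5 (8.58% to 30.8%). Untreated, 1 of 8 members (Ddit3, lower) was called with library weights, near the 11.5% of all tested genes called in that fit. The difference of the LPS effects gave 1 with TMM factors and WT LPS replicate 3 left out (6.91% of all tested genes called), and 0 to 2 when 1 library was left out (0.353% to 12.6%). The causes were not tested. The replicate numbers are shared between groups but did not pair the libraries (correlations of deviations from -0.03 to 0.04); with the replicate block, 0 members were called between genotypes with LPS (179 genes against 281), 1 for LPS in WT (2955 against 3286), and 0 for the rest.

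All reversals were of log2 fold changes that were not called as reported. With TMM factors they were Trib3 untreated (0.014), Sesn2 (0.28) and Atf5 (0.30) for LPS in WT, Phgdh for LPS in cGAS-/- (0.031) and the Ddit3 difference (-0.35). With WT LPS replicate 3 left out as well, they were Trib3 untreated (0.027), Atf5 between genotypes with LPS (-0.085), Sesn2 (0.41), Ppp1r15a (0.16) and Atf5 (0.70) for LPS in WT, Phgdh for LPS in cGAS-/- (0.030), and the differences of Ddit3 (-0.64) and Atf5 (-0.054). Quantile normalization reversed Trib3 untreated (0.073), Chac1 (0.094) and Sesn2 (0.064) for LPS in WT, Phgdh for LPS in cGAS-/- (0.054) and the Ddit3 difference (-0.10). Protein-coding genes alone reversed Trib3 untreated (0.016), Trib3 (-0.054) and Asns (-0.016) for LPS in WT, Ppp1r15a for LPS in cGAS-/- (-0.11) and the Ddit3 difference (-0.15). A common total reversed Trib3 (-0.13) and Asns (-0.24) for LPS in WT, a pseudocount of 0.1 the same genes (-0.0083 and -6.3e-05), and a pseudocount of 5 Trib3 untreated (0.0048) and the Ddit3 difference (-0.012). Library weights reversed Asns (-0.29) and Atf5 (0.19) for LPS in WT and the Ddit3 difference (-0.42). When 1 library was left out, the values that changed sign ran from -0.25 to 0.24 for Trib3 and from -0.31 to 0.15 for Phgdh untreated, from -0.023 to 1.09 for Atf5 between genotypes with LPS, from -0.22 to 0.49 for Trib3, -0.27 to 0.34 for Asns, -0.76 to 0.0090 for Sesn2 and -0.83 to 0.28 for Atf5 for LPS in WT, from -0.46 to 0.055 for Phgdh for LPS in cGAS-/-, and from -0.52 to 0.46 for the Ddit3 difference.

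The genes called overall also moved. Without WT LPS replicate 2 they numbered 3312 between genotypes with LPS, 341 untreated, 5785 for LPS in WT (3286 as reported), 2428 for LPS in cGAS-/- and 1496 for the difference, and with the 6 libraries alone 5 between genotypes with LPS and 716 for LPS in WT. Without WT LPS replicate 3 they numbered 984 between genotypes with LPS (281 as reported), 633 untreated (218), 3663 for LPS in cGAS-/- (1643) and 542 for the difference (107). With TMM factors, the calls for LPS in WT were 958 higher and 1377 lower, against 512 and 2774. None of the 45 named changes of listed genes reversed under any alternative.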
